A study of Rattus norvegicus with 6 samples.

Results

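The 7 subunits of respiratory complex I that are encoded in mitochondrial DNA, Mt-nd1, Mt-nd2, Mt-nd3, Mt-nd4l, Mt-nd4, Mt-nd5 and Mt-nd6, were followed in RNA-seq counts from rat hearts. They are 7 of the 21554 gene rows, chosen by Ensembl identifier, and all 7 were kept. The hearts came from male Sprague-Dawley rats obtained at 6 to 8 weeks of age. The 3 model rats (numbered 3, 4 and 8) received 1 intraperitoneal injection of streptozotocin (STZ), which destroys insulin-producing cells, at 65 mg/kg in citrate buffer, and entered the study only if their blood glucose showed diabetes afterwards. The 3 control rats (numbered 1, 2 and 3) received citrate buffer, and all hearts were taken 5 months after the injection. Each library is 1 rat's heart tissue, a mixture of cell types, in which fewer cells of a type and less RNA per cell cannot be told apart.

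Complex I takes electrons from NADH, passes them to ubiquinone and pumps protons across the inner mitochondrial membrane, which feeds the oxidative ATP supply on which heart muscle relies. Its membrane arm is built around these 7 proteins, which are made inside the mitochondrion, while the remaining subunits are encoded in the nucleus. Mitochondrial genes are transcribed as long precursors that are cut into mRNAs, and mRNAs cut from 1 precursor are known to differ in level through processing and decay. 6 of the 7 are read from 1 strand of the mitochondrial DNA and Mt-nd6 from the opposite strand.

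The question asked of the data was whether these mRNAs differed between the diabetic and the control hearts, singly, as a sum and relative to each other. The lowest count of any of the 7 in any heart was 33613, for Mt-nd4l in control 2, and the highest was 741893, for Mt-nd4 in model 8. The counting error of even the lowest count was 0.545% of its value, which is small beside the spread between libraries of 1 group. Library totals ran from 16617803 to 17948961 counts and differed by at most 1.08-fold. No sequence of the 7 genes and no coordinates in the files' build were used here.

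The identity of each row was checked by the length that its count, its FPKM and the library total imply. That length was 955 bases for Mt-nd1 (ENSRNOG00000030644), 1039 for Mt-nd2 (ENSRNOG00000031033), 348 for Mt-nd3 (ENSRNOG00000033615) and 297 for Mt-nd4l (ENSRNOG00000031053). It was 1378 bases for Mt-nd4 (ENSRNOG00000029707), 1830 for Mt-nd5 (ENSRNOG00000029971) and 519 for Mt-nd6 (ENSRNOG00000029042). Each length was the same in every library and within 5% of the gene's usual length. Mt-nd4l and Mt-nd4 lie on 1 shared mRNA and their ends overlap, so reads at their junction could count for either. The sources used here do not state whether counting used the strand, and without strand reads of Mt-nd6 cannot be told from transcripts of the other strand at that place. Nuclear copies of mitochondrial DNA could also share reads with any of the 7.

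The 7 mRNAs together made up a large share of every library. They took 11.5%, 6.51% and 10.3% of all counts in controls 1, 2 and 3, and 10.7%, 8.41% and 12.7% in models 3, 4 and 8. The groups overlapped, and control 2 had the lowest value of the 6 hearts. The mean share was 9.44% ± 2.61 for the controls and 10.6% ± 2.12 for the models (SD, n = 3 each), and the difference did not pass an exact 2-sided permutation test (p = 0.6, where 0.1 is the smallest p that 3 against 3 hearts can give). Without control 2 the difference between the means, +1.13 percentage points for the model hearts, became -0.33 points (exact permutation p = 1). The 95% Wilson interval of each summed share, which covers counting error only, was at most 0.0159 points to either side.

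**Figure D1:**
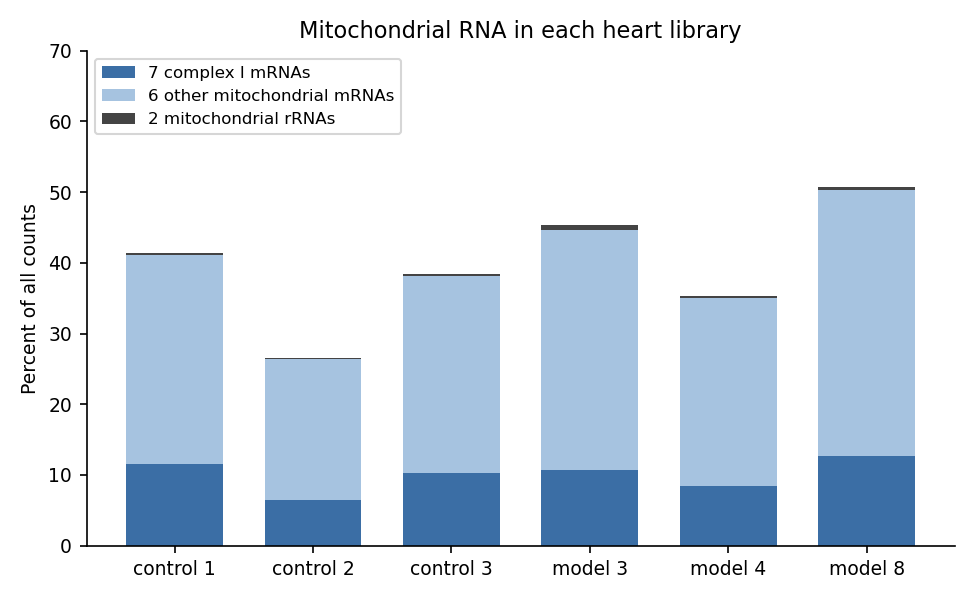
Percent of all counts in each of the 6 heart libraries taken by the 7 complex I mRNAs (dark blue), the 6 other mitochondrial mRNAs (light blue) and the 2 mitochondrial rRNAs (black), as stacked bars starting at 0. The 7 mRNAs took 6.51% to 11.5% in control hearts and 8.41% to 12.7% in model hearts, and control 2 had the shortest bar.

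The sum of the 7 and that of the other mitochondrial mRNAs were lowest in the same heart, control 2, and highest in the same heart, model 8. The 6 other mitochondrial mRNAs, whose rows were named by identifier and by the same length check, took 29.6%, 19.8% and 27.8% of counts in controls 1, 2 and 3 and 33.9%, 26.6% and 37.7% in models 3, 4 and 8. These overlapped too (exact permutation p = 0.3). Of the counts on all 13 mitochondrial mRNAs, the 7 complex I mRNAs held 27.9%, 24.7% and 27.1% in controls 1, 2 and 3 and 23.9%, 24.1% and 25.1% in models 3, 4 and 8. The mean of that share was 26.6% ± 1.67 in control and 24.4% ± 0.675 in model hearts (SD, n = 3 each), with overlap at control 2 and model 8 (exact permutation p = 0.2).

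Against the counts from outside the mitochondrial rows, the 7 mRNAs stood at 19.6%, 8.87% and 16.8% in controls 1, 2 and 3 and at 19.5%, 13.02% and 25.7% in models 3, 4 and 8. This ratio, too, overlapped between the groups (exact permutation p = 0.5). Of the 20 most abundant rows outside the mitochondrial genes, ranked over all 6 hearts, 16 had a lower share of the library in every model heart than in any control heart. Over all genes tested, 52.1% did not overlap by share of the library, in either direction. These shares have the mitochondrial counts in their base, so they and the members' shares are not separate measurements. A gene's share of the library depends on what other abundant rows take. Shares are therefore given below together with normalised read counts, TMM CPM. These are counts scaled to a common library size by TMM, a method that sets the typical gene equal between libraries. TMM itself moved the members: the scaling factors were 0.881, 0.971 and 0.886 in controls 1, 2 and 3 and 1.077, 1.244 and 0.984 in models 3, 4 and 8.

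By TMM CPM none of the 7 members separated the groups. 0 of 7 passed edgeR's quasi-likelihood test with Benjamini-Hochberg adjustment over the 13895 genes tested, both at an adjusted p under 0.05 alone and with a log2 fold change above 1 in size added. Over all genes 35.1% passed the former rule and 21.7% the latter. At an unadjusted p under 0.05, edgeR called 0 of 7, against 46.6% of all genes, and DESeq2 called 3 of 7, against 47%. DESeq2 placed 1 of 7 (Mt-nd3) past an adjusted p of 0.05, against 39.3% of all genes, and 0 of 7 past both thresholds, against 23.4%. For 0 of 7 did the TMM CPM of control and model hearts not overlap, against 51.8% of all genes tested. By share of the library 2 of 7 (Mt-nd3 and Mt-nd6) did not overlap, against 52.1% of all genes. The median log2 fold change of the 7 was 0.03, beside 0.076 over all genes tested.

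**Figure D2:**
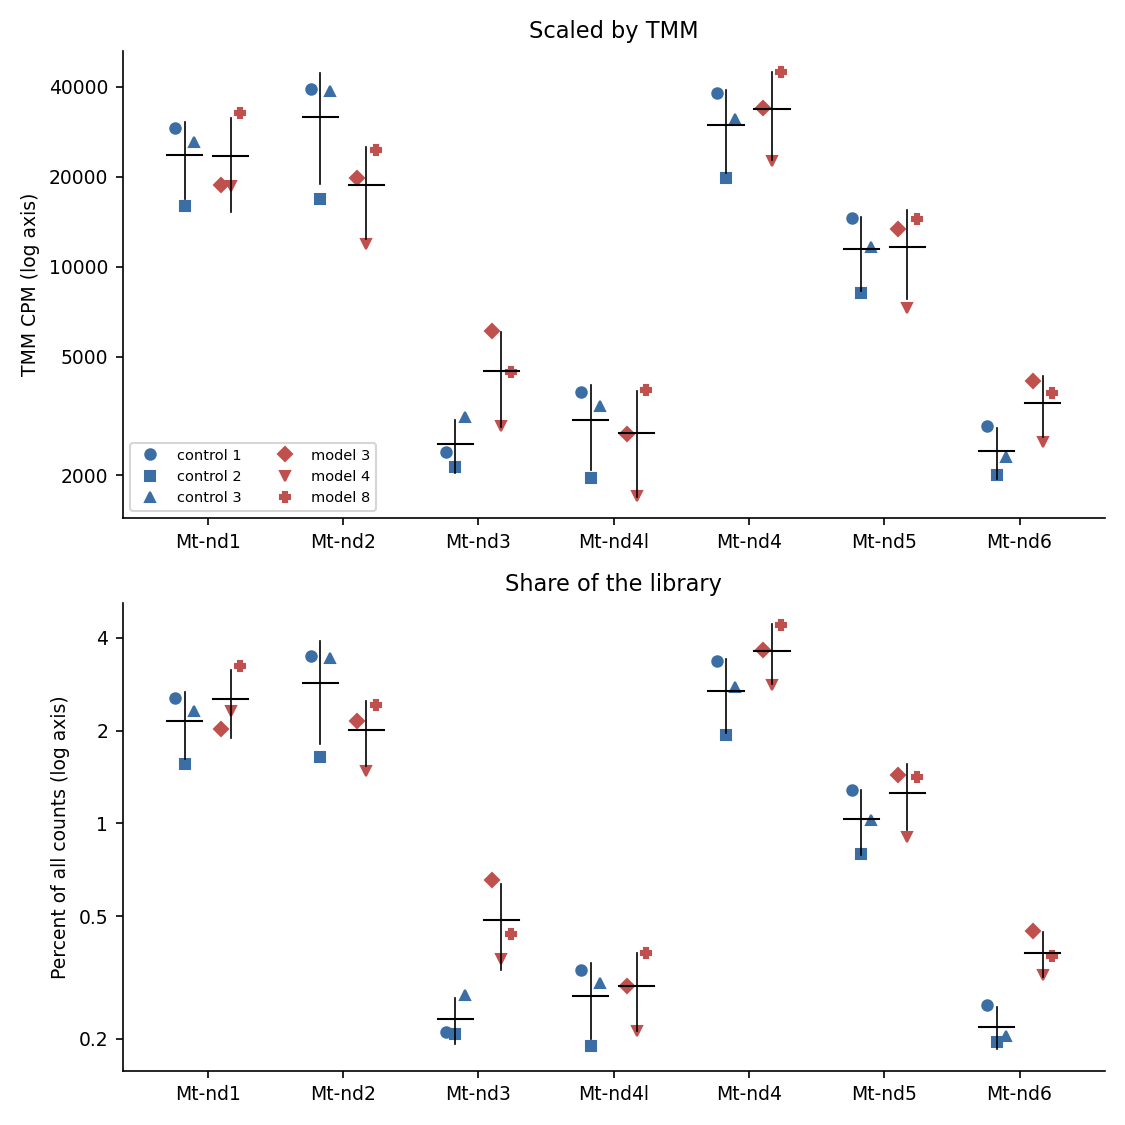
Level of each of the 7 mRNAs in each heart, as TMM CPM (upper panel) and as percent of all counts (lower panel), both on log axes, with control hearts in blue, model hearts in red, and black lines for the mean and SD of each group of 3. Control 2 and model 4 are the lowest of their groups for all 7 in the upper panel, and only Mt-nd3 and Mt-nd6 in the lower panel show no overlap.

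Mt-nd2, Mt-nd4 and Mt-nd5 encode the large antiporter-like subunits through which the membrane arm moves protons. Mt-nd2 had 39528, 16906 and 38740 TMM CPM in controls 1, 2 and 3 and 19900, 11943 and 24621 in models 3, 4 and 8. Controls 1 and 3 lay above every model heart, and control 2 lay between model 4 and model 3. Its log2 fold change was -0.75 (SE 0.61, 95% interval -2.13 to 0.63, edgeR adjusted p = 0.360). Without control 2 it was -1.07 with an edgeR adjusted p of 0.257. As a share of the library it was 3.48%, 1.64% and 3.43% against 2.14%, 1.48% and 2.42%, in the same order of hearts.

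Mt-nd4 was the most abundant of the 7 by count in the model group. It had 38154, 19887 and 31307 TMM CPM in controls 1, 2 and 3 and 34064, 22660 and 44780 in models 3, 4 and 8, and the groups overlapped over most of their range. The log2 fold change was 0.18 (SE 0.60, 95% interval -1.18 to 1.55, edgeR adjusted p = 0.836). Its library share was 3.36%, 1.93% and 2.77% in control and 3.66%, 2.81% and 4.40% in model hearts, so that control 1 alone reached the range of the model hearts.

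Mt-nd5, which encodes the subunit at the far end of the membrane arm, had the closest group means of these large subunits. It had 14585, 8190 and 11616 TMM CPM in controls 1, 2 and 3 and 13331, 7267 and 14427 in models 3, 4 and 8. The control range spanned 2 of the 3 model values, and model 4 lay below every control heart. Its log2 fold change was 0.03 (SE 0.49, 95% interval -1.08 to 1.14, edgeR adjusted p = 0.972). As a share of the library Mt-nd5 was 1.28%, 0.795% and 1.03% in control and 1.43%, 0.903% and 1.42% in model hearts. On that scale models 3 and 8 lay above every control heart.

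Mt-nd1 encodes the subunit that helps to form the ubiquinone site where the membrane arm meets the arm in the matrix. Its TMM CPM was 29054, 15994 and 26199 in controls 1, 2 and 3 and 18828, 18636 and 32841 in models 3, 4 and 8. The lowest heart was a control and the highest a model heart. The log2 fold change was -0.02 (SE 0.56, 95% interval -1.29 to 1.25, edgeR adjusted p = 0.982), and the interval leaves room for more than a 2-fold difference either way. As a share of the library it was 2.56%, 1.55% and 2.32% in control and 2.03%, 2.32% and 3.23% in model hearts.

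Mt-nd3, Mt-nd4l and Mt-nd6 encode the small subunits that link the ubiquinone end to the proton channels, and a loop of the Mt-nd3 protein takes part in the switch between the active and the resting enzyme. Mt-nd3 had the largest positive difference of the 7. It had 2392, 2135 and 3141 TMM CPM in controls 1, 2 and 3 and 6086, 2931 and 4449 in models 3, 4 and 8. Only control 3 and model 4 crossed. The log2 fold change was 0.81 (SE 0.39, 95% interval -0.07 to 1.70, edgeR adjusted p = 0.134). Without model 3 it was 0.47 (edgeR adjusted p = 0.244).

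The call for Mt-nd3 depended on the scaling and on the tool. DESeq2 gave a log2 fold change of 0.78 with an adjusted p of 0.0278. With libraries scaled by their totals, edgeR gave 1.07 with an adjusted p of 0.0442, past both thresholds. It was the only member called there, 1 of 7, while 38.6% of all genes passed the adjusted p and 26.3% passed both thresholds. Under that scaling the median of all genes moved from 0.076 to 0.345, so Mt-nd3 lay 0.72 above the median of all genes there. As a share of the library Mt-nd3 was 0.211%, 0.207% and 0.278% in controls 1, 2 and 3 and 0.655%, 0.364% and 0.437% in models 3, 4 and 8, without overlap.

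Mt-nd6, the member read from the opposite strand, had 2927, 2006 and 2300 TMM CPM in controls 1, 2 and 3 and 4149, 2588 and 3780 in models 3, 4 and 8. Model 4 fell below control 1, and models 3 and 8 lay above all controls. The log2 fold change was 0.54 (SE 0.35, 95% interval -0.25 to 1.33, edgeR adjusted p = 0.251), and 0.35 without model 3 (edgeR adjusted p = 0.368). Its library share, 0.258%, 0.195% and 0.204% in control and 0.446%, 0.322% and 0.372% in model hearts, did not overlap. Scaled by library totals, its log2 fold change of 0.80 had an edgeR adjusted p of 0.0870.

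Mt-nd4l, which shares its mRNA with Mt-nd4, followed the sum of the 7 most closely. It had 3797, 1954 and 3417 TMM CPM in controls 1, 2 and 3 and 2747, 1705 and 3859 in models 3, 4 and 8, and the ranges almost coincided. The log2 fold change was -0.14 (SE 0.42, 95% interval -1.10 to 0.81, edgeR adjusted p = 0.819). Its library share was 0.334%, 0.190% and 0.303% in control and 0.296%, 0.212% and 0.380% in model hearts.

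**Figure D3:**
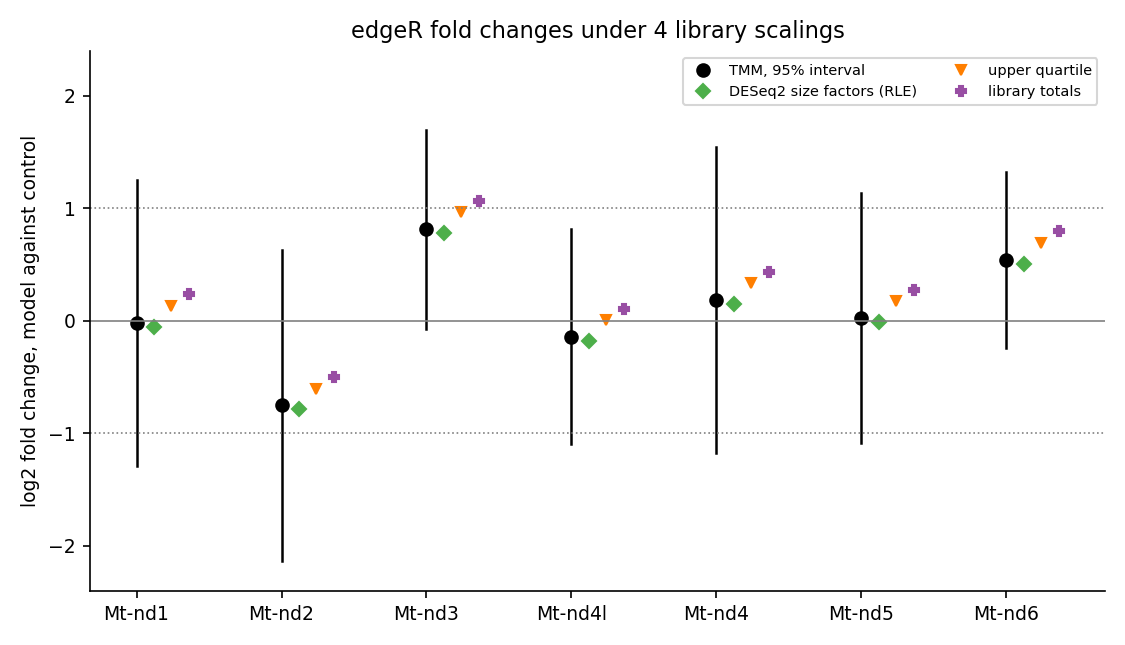
Log2 fold change of each of the 7 mRNAs, model against control, from edgeR with TMM (black points, lines for the 95% interval) and with 3 other library scalings (coloured points, no interval drawn). Every interval includes 0, and the points of Mt-nd1, Mt-nd4l and Mt-nd5 fall on either side of 0 depending on the scaling, while Mt-nd2 stays below and Mt-nd3, Mt-nd4 and Mt-nd6 stay above.

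The lowest heart of each group was shared by the members, but the highest was not. Mt-nd3 and Mt-nd6 were highest in model 3 and the other 5 in model 8, and Mt-nd3 was highest in control 3 where the others were highest in control 1. Control 2 was the lowest control heart for 7 of 7 members and model 4 the lowest model heart for 7 of 7 by TMM CPM. By share of the library the counts were 7 of 7 for control 2 and 6 of 7 for model 4. Within the control group the coefficient of variation of TMM CPM ran from 19.5% for Mt-nd6 to 40.5% for Mt-nd2, and within the model group from 23.3% for Mt-nd6 to 38.9% for Mt-nd4l. Without control 2, edgeR put 0 of 7 past an adjusted p of 0.05, where 18.4% of all genes passed, and the log2 fold changes of Mt-nd4 and Mt-nd5 turned to -0.05 and -0.18. The part of this spread in the differences between groups was not tested.

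The makeup of the 7, that is each member's percent of their summed counts, does not depend on how libraries are scaled. Mt-nd2 made up 30.3%, 25.2% and 33.2% of the 7 in controls 1, 2 and 3 and 20.1%, 17.6% and 19.1% in models 3, 4 and 8. Every model heart lay below every control heart, with means of 29.6% ± 4.04 and 18.9% ± 1.23 (SD, n = 3 each, exact permutation p = 0.1, adjusted over the 7 members 0.233). Mt-nd4 made up 29.3%, 29.6% and 26.8% in controls and 34.4%, 33.5% and 34.8% in models, all model hearts above all controls. Its means were 28.6% ± 1.53 and 34.2% ± 0.677 (SD, n = 3 each, exact permutation p = 0.1, adjusted 0.233). Mt-nd3 made up 1.83%, 3.18% and 2.69% in controls and 6.14%, 4.33% and 3.46% in models, again without overlap and with the same exact permutation p. As 3 hearts against 3 cannot go below 0.1 in this exact test, these 3 separations did not pass 0.05 and could not have. Separation in 3 of 7 members stands beside 52.1% of all genes tested whose share of the library did not overlap, which is another base. No like share for other sets of genes was worked out.

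The other members overlapped. Mt-nd4l held 2.91%, 2.91% and 2.93% of the 7 in controls 1, 2 and 3, the tightest share of any member, and 2.77%, 2.52% and 2.997% in models 3, 4 and 8. Mt-nd1 held 22.9% ± 0.862 in control and 24.0% ± 4.45 in model hearts, and Mt-nd5 held 11.1% ± 1.13 and 11.8% ± 1.45 (SD, n = 3 each). Mt-nd6 held 2.24%, 2.99% and 1.97% in controls and 4.19%, 3.82% and 2.94% in models, where only control 2 and model 8 crossed (exact permutation p = 0.2). As the shares add up to the whole, a lower share of Mt-nd2 and higher shares of others are not separate measurements.

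**Figure D4:**
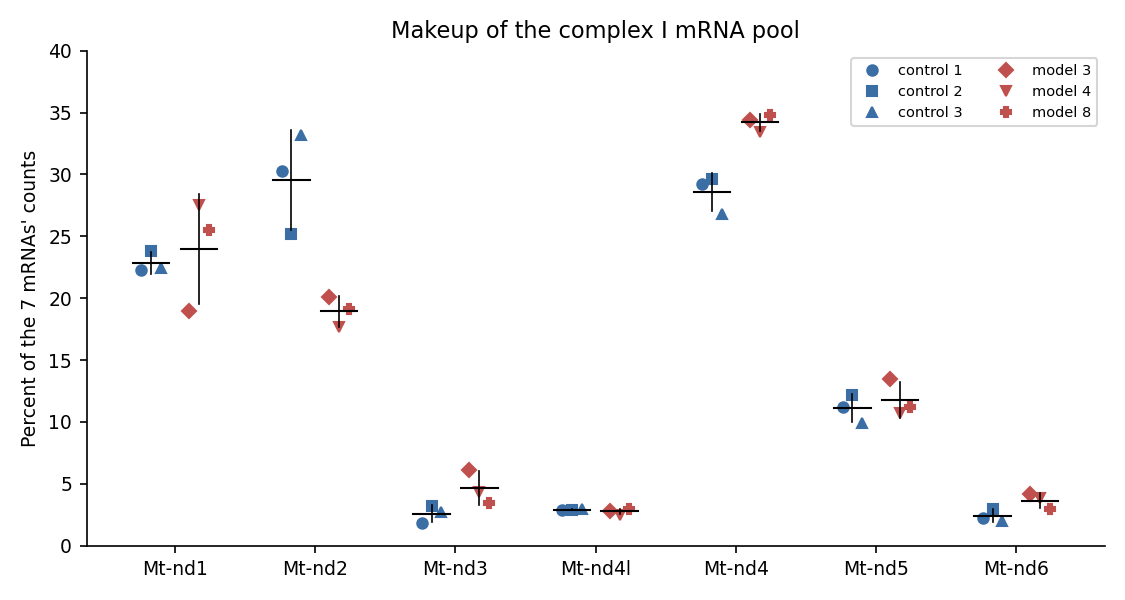
Each member's percent of the summed counts of the 7 mRNAs in each heart (axis from 0), control in blue and model in red, with black lines for the mean and SD of each group of 3. Mt-nd2 lies at 25.2% to 33.2% in control and 17.6% to 20.1% in model hearts, Mt-nd4 at 26.8% to 29.6% and 33.5% to 34.8%, and Mt-nd4l hardly varies among the controls.

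Without control 2 the control means of Mt-nd2, Mt-nd4 and Mt-nd3 were 31.7%, 28.0% and 2.26% of the 7. When the base was the 13 mitochondrial mRNAs in place of the 7, Mt-nd2 and Mt-nd3 still did not overlap and Mt-nd4 did. On that base Mt-nd2 held 8.47%, 6.23% and 8.998% in controls 1, 2 and 3 and 4.80%, 4.24% and 4.81% in models 3, 4 and 8 (exact permutation p = 0.1, adjusted over the 7 members 0.28).

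Ratios between pairs of members use no shared total. Of the 21 pairs, 11 had log2 ratios that did not overlap between the groups, each with an exact permutation p of 0.1 and an adjusted p over the 21 pairs of 0.191. All 6 pairs with Mt-nd2 were among them, as were 5 of the 15 pairs without it. The 21 ratios reuse the same 7 values per heart, and the 6 with Mt-nd2 share its values, so they are not separate measurements. No share over other gene pairs was worked out. Among single genes, 51.8% of those tested did not overlap by TMM CPM. The pair of Mt-nd2 and Mt-nd1 was separated by almost nothing: the ratio was 1.36, 1.06 and 1.48 in controls 1, 2 and 3 and 1.06, 0.641 and 0.750 in models 3, 4 and 8, and control 2 and model 3 were equal to 3 digits.

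Mt-nd4 and Mt-nd2 both encode antiporter-like subunits. Mt-nd4 counts per Mt-nd2 count were 0.965, 1.18 and 0.808 in controls 1, 2 and 3 and 1.71, 1.90 and 1.82 in models 3, 4 and 8. The model hearts lay within a narrow band above all controls, with a difference of 0.90 in mean log2 ratio (exact permutation p = 0.1). Mt-nd3 counts were 6.05%, 12.6% and 8.11% of Mt-nd2 counts in controls and 30.6%, 24.5% and 18.1% in models, a difference of 1.48 in mean log2 ratio (exact permutation p = 0.1).

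Mt-nd4 and Mt-nd4l come from 1 mRNA, and their ratio, too, did not overlap between the groups. Mt-nd4 counts per Mt-nd4l count were 10.05, 10.2 and 9.16 in controls 1, 2 and 3 and 12.4, 13.3 and 11.6 in models 3, 4 and 8. All model hearts lay above all controls, with means of 9.80 ± 0.553 and 12.4 ± 0.844 (SD, n = 3 each) and a difference of 0.34 in mean log2 ratio (exact permutation p = 0.1). Per length, as FPKM, the ratio was 2.11 ± 0.119 in control and 2.68 ± 0.182 in model hearts. As the 2 genes lie on 1 mRNA, this ratio does not compare the levels of 2 mRNAs. The part of read counting in it was not tested. Among single genes, 51.8% of those tested did not overlap by TMM CPM, and no share over other gene pairs was worked out.

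Mt-nd6 was also set against the other 6 members, which are read from the opposite strand. Its counts were 2.30%, 3.08% and 2.01% of theirs in controls 1, 2 and 3 and 4.37%, 3.97% and 3.02% in models 3, 4 and 8. Control 2 lay just above model 8, so the groups overlapped, with a difference of 0.63 in mean log2 ratio (exact permutation p = 0.2). With 1 heart left out the difference ran from 0.49 (without control 3) to 0.80 (without control 2).

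**Figure D5:**
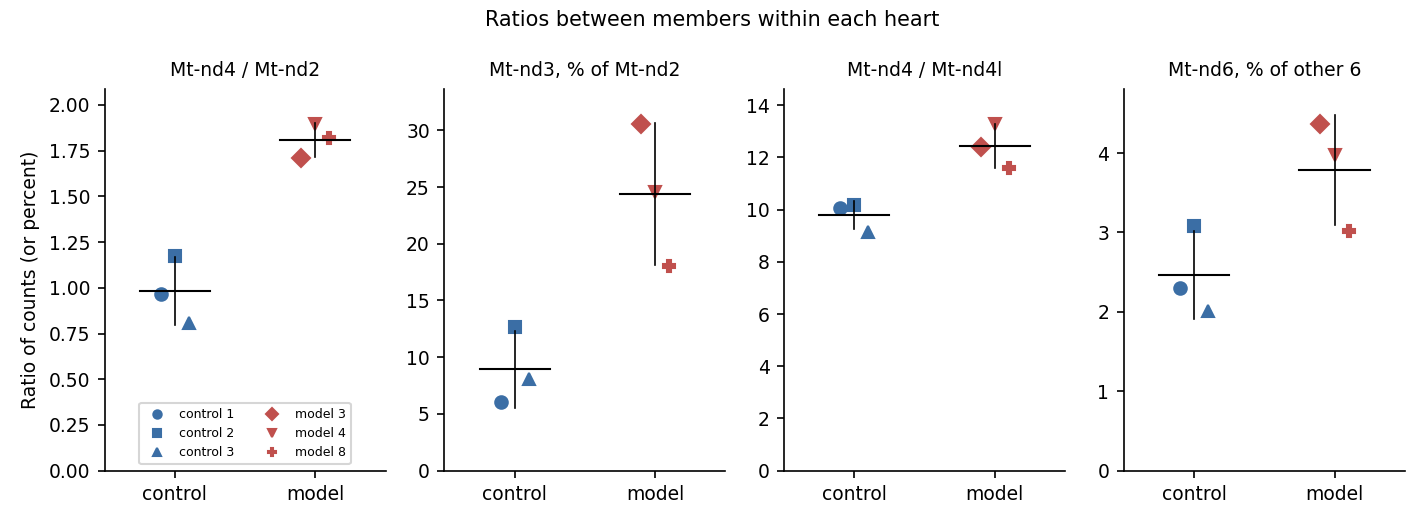
Ratios of counts between members within each heart, for Mt-nd4 per Mt-nd2, Mt-nd3 as percent of Mt-nd2, Mt-nd4 per Mt-nd4l and Mt-nd6 as percent of the other 6, each on its own axis from 0, with black lines for the mean and SD of each group of 3. The former 3 ratios do not overlap between control (blue) and model (red) hearts, and in the last panel control 2 at 3.08% lies above model 8 at 3.02%.

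The order of the 7 was read per length, from FPKM. In control hearts Mt-nd2 (mean FPKM 27438 ± 10087), Mt-nd1 (22447 ± 5506) and Mt-nd4 (19503 ± 5217) led, followed by Mt-nd4l (9278 ± 2561), Mt-nd3 (6666 ± 1147), Mt-nd5 (5661 ± 1339) and Mt-nd6 (4215 ± 658) (SD, n = 3). Among neighbours in this order, only the ranges of Mt-nd4 and Mt-nd4l did not overlap, and Mt-nd2 lay above Mt-nd1 in 2 of 3 hearts. In model hearts Mt-nd1 (26422 ± 6580) and Mt-nd4 (26325 ± 5768) led Mt-nd2 (19395 ± 4632), Mt-nd3 (13949 ± 4344), Mt-nd4l (9954 ± 2823), Mt-nd6 (7319 ± 1210) and Mt-nd5 (6840 ± 1653) (SD, n = 3). There all neighbouring ranges overlapped. Mt-nd4 lay above Mt-nd2 in 3 of 3 model hearts and Mt-nd1 above Mt-nd2 in 3 of 3 on this scale.

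The other 8 mitochondrial genes gave the setting for these values. In edgeR's test 0 of 8 passed an adjusted p under 0.05, beside 35.1% of all genes. There 1 of 8 had an unadjusted p under 0.05, beside 46.6% of all genes. DESeq2 put 1 of 8 past the adjusted threshold, beside 39.3% of all genes. The log2 fold changes of the 6 other mRNAs, which encode subunits of complexes III and IV and of ATP synthase, ran from -0.32 to 0.38. The counts outside the mRNAs were small: the 2 mitochondrial rRNAs took 0.332%, 0.252% and 0.308% of all counts in controls 1, 2 and 3 and 0.774%, 0.394% and 0.314% in models 3, 4 and 8.

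The nuclear partners of these subunits were not set beside them. Symbols were paired with identifiers only through a gene list in the study's supplement. A symbol without a pair may therefore still be among the counted genes. Of 37 nuclear complex I genes and 16 mitochondrial transcription and RNA factors listed by symbol, 0 were paired with an identifier. Of the heart's cell type markers, 0 of 10 for cardiomyocytes, 0 of 5 for fibroblasts, 0 of 4 for smooth muscle and 0 of 3 for blood were paired, with 3 of 6 for endothelium and 1 of 4 for macrophages. All of these fell under the 80% needed, so the labelled tissue was not checked against markers and the part of cell makeup in any difference above was not tested.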

How the data were processed

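The authors deposited whole-number read counts for each gene, not normalized, and FPKM values made from the same counts, 1 length per gene and each library's total. The labels name TRIzol extraction and an NEBNext Ultra kit, and the submitters' processing notes list HISAT2 2.0.5, StringTie 1.3.3b and the build mRatBN7.2. How reads that fit several places or either strand were counted is not given in the sources used here.

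Counts of all 21554 genes were filtered with filterByExpr, scaled by TMM and tested with edgeR 4.0.16 (R 4.3.3, quasi-likelihood, no covariate). Each standard error was obtained from the log2 fold change and its F statistic. DESeq2 1.42.0, limma 3.58.1 on counts (voom) and on log2(FPKM + 1) and log2(FPKM + 0.1), other scalings, no filter and leaving out each library were alternatives. The procedure was run on simulated counts with a small set of changed genes and no planned shift in library makeup. That setting differs from these data, so it cannot show how the scalings treat the members. Sums, shares and ratios were compared with exact 2-sided permutation tests (Python 3.11.15, scipy 1.17.1). The files carry no batch label.

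All 7 members are named by rule, and the members and lists were chosen with earlier results of these data known. Pair ratios and the base of 13 mRNAs were added after seeing the data. The labels do not say that the libraries were prepared separately beyond being 1 rat each.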

Additional observations from a re-analysis of the deposited data

How the results depend on the processing

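Across 15 alternatives, the log2 fold changes of Mt-nd2, Mt-nd3 and Mt-nd6 kept their direction in 15 of 15. The number of members past both thresholds was 1 with library totals (26.3% of all genes), and the number past an adjusted p of 0.05 was 1 with library totals (38.6%) and 1 with DESeq2 (39.3%), Mt-nd3 each time. Mt-nd3 and Mt-nd6 were lowest without model 3 (0.47 and 0.35). Mt-nd1 turned positive with the upper quartile (0.13), library totals (0.24), log2(FPKM + 1) (0.24) and log2(FPKM + 0.1) (0.24), and ran from -0.35 to 0.14 with 1 library left out. Mt-nd4l did so with the upper quartile (0.0072), library totals (0.10), log2(FPKM + 1) (0.10) and log2(FPKM + 0.1) (0.10), and ran from -0.46 to 0.075. Mt-nd5 turned negative with DESeq2 size factors in edgeR (-0.0074), no filter (-0.0015) and DESeq2 (-0.0074), and ran from -0.18 to 0.24, and Mt-nd4 ran from -0.075 to 0.39 with 1 library left out. The scalings also shifted the median of all genes, which was 0.076 with TMM, 0.043 with DESeq2 size factors, 0.230 with the upper quartile and 0.345 with library totals. Of the other 8 mitochondrial genes, 1 passed an adjusted p of 0.05 with the upper quartile, library totals, no filter, DESeq2, voom, log2(FPKM + 1) and log2(FPKM + 0.1). Over all genes, 4695 (voom) to 5456 (DESeq2) of 13895 passed in these settings, and 4774 of 20347 with no filter. With 1 library left out, 0 to 1 of the 8 passed. Over all genes, 2609 of 14322 (without control 3) to 4865 of 14206 (without model 3) did so. The difference in the members' summed share became -0.62 points with TMM sizes as the base, and ran from -0.33 to 2.22 points with 1 library left out (lowest without control 2). The number of members with separate makeup ran from 3 to 5 with 1 library left out (highest without model 8), and leaving one out cannot lower it. The cause was not tested, and no like count for other sets of genes was made. Nuclear complex I genes were not run, for want of names. No paired analysis was possible because only the number 3 occurs in both groups, on different rats. 3 rats a group limit every comparison: no exact test could pass 0.05.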

Other observations

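Mt-rnr1, the small mitochondrial rRNA, was singled out after its values were seen. It had 1529, 1140 and 1132 TMM CPM in controls 1, 2 and 3 and 4273, 1930 and 2085 in models 3, 4 and 8, without overlap. Over all genes tested, 51.8% did not overlap on this scale. The 2 mitochondrial rRNAs together took only 0.252% (control 2) to 0.774% (model 3) of all counts. The part of library preparation in their values was not tested. The log2 fold change of Mt-rnr1 was 1.12 (SE 0.39, edgeR adjusted p = 0.0520), and the large rRNA Mt-rnr2 had -0.20 (SE 0.43, edgeR adjusted p = 0.751). For Mt-rnr1 the adjusted p was 0.00420 with DESeq2, 0.0179 with library totals and 0.0344 with the upper quartile in edgeR. In edgeR it was 0.0580 with DESeq2 size factors and 0.0582 with TMM computed without the mitochondrial rows. Of all genes, 39.3% passed 0.05 with DESeq2 and 38.6% with library totals. With 1 library left out, the edgeR adjusted p of Mt-rnr1 ran from 0.0472 (without model 4) to 0.178 (without control 3). Without model 3, its highest heart, the log2 fold change was 0.61 (edgeR adjusted p = 0.0753), and that of Mt-rnr2 was -0.83 (edgeR adjusted p = 0.0531). The Mt-rnr1 row was named by identifier and by the same length check as the other mitochondrial rows. As it was picked for its values, its direction is no independent evidence.

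A second pair of genes that share 1 mRNA gave a ratio without overlap between groups, as Mt-nd4 and Mt-nd4l did. Mt-atp8 and Mt-atp6 encode subunits of ATP synthase. Mt-atp8 counts were 0.268%, 0.297% and 0.311% of Mt-atp6 counts in controls 1, 2 and 3 and 0.205%, 0.211% and 0.250% in models 3, 4 and 8, without overlap. The mean log2 ratio was lower by 0.40 in the model hearts (exact permutation p = 0.1, the smallest that 3 against 3 can give). Per length, as FPKM, Mt-atp8 stood at only 0.895%, 0.992% and 1.04% of Mt-atp6 in controls 1, 2 and 3. In models 3, 4 and 8 it stood at 0.685%, 0.705% and 0.833%. The part of read counting in these low values was not tested. In both pairs the shorter gene was lower relative to the longer one in every model heart than in any control heart. Mt-nd3, at 348 bases, was higher relative to Mt-nd1, Mt-nd2, Mt-nd4l and Mt-nd5, without overlap. Its ratios to Mt-nd4 and Mt-nd6 overlapped. The part of gene length in these ratios was not tested. No share over other gene pairs was worked out, and 51.8% of single genes tested did not overlap by TMM CPM. The pair of Mt-atp8 and Mt-atp6 was looked at after seeing the data.

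Outside the mitochondrial rows, the genes whose TMM CPM followed the sum of the 7 most closely over the 6 hearts were ENSRNOG00000056562 and ENSRNOG00000068516, with root mean square differences of 0.115 and 0.141 on the centred log2 scale. Neither is paired with a symbol. Both were picked as the closest of all genes tested, over only 6 hearts. ENSRNOG00000068516 had just 0.407 (control 2) to 0.818 (control 3) TMM CPM, so its match rests on few reads. Among the members themselves this difference from their own sum ran from 0.084 for Mt-nd4l to 0.542 for Mt-nd3.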
